A study of Mus musculus with 8 samples.

Results

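The genes described here encode the constitutive proteasome, its assembly chaperones and the regulators that share its gene symbols. Members were the genes whose symbol starts with Psma to Psmg followed by a number, together with Pomp. The inducible subunits Psmb8, Psmb9 and Psmb10 and the activator genes Psme1 and Psme2 were left out, so the choice rested on names and not on measured values. This gave 45 of the 21515 genes measured. They were 13 subunits of the 20S core, 17 subunits of the 19S particle, 8 assembly chaperones, 3 other activators or regulators of the core, and 2 subunits restricted to other tissues. The remaining 2, Psmc3ip and Psme3ip1, match by name but encode no subunit.

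The proteasome is the main protease of the cytosol and nucleus. Its barrel-shaped 20S core has outer rings of α subunits, which form the gate, and inner rings of β subunits, some of which cut proteins. The 19S particle caps the barrel, binds ubiquitin-tagged proteins, removes the tag, and unfolds and threads the chain through ATPases, while dedicated chaperones order the assembly of both parts and then leave. In B cells the proteasome degrades inhibitors of NF-kB, supplies peptides for MHC class I molecules and clears excess protein when cells grow and secrete, and inducible β subunits replace the constitutive catalytic ones when immune signals call for it.

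Expression was measured on 8 arrays of mouse spleen B cells, 2 per group, with replicates labelled biological but with no statement of how many animals went into each. LMP1 cells carried the alleles LMP1flSTOP/YFPflSTOP and YFP control cells YFPflSTOP/+. Both came from female (C57BL6XBALBc) F1 mice, were exposed to the cell-permeable recombinase TAT-Cre, which removes the stop cassette, and were sorted 2 days later for the YFP reporter. LMP1 is a membrane protein of Epstein-Barr virus that drives signals related to those of the receptor CD40. CD40-activated cells and naive control cells came from male C57BL6 mice of strain B6/J. The CD40-activated cells spent 2 days with an antibody to CD40, and the naive control cells gave their RNA straight after isolation. All 4 groups were enriched by depleting cells that carry CD43, and no age was given. The model therefore covers B cells manipulated outside the animal, and the naive control had no culture period.

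Values are log2 expression of 1 probe set per gene, after the authors' RMA, whose steps include quantile normalization. A level is therefore relative to the other RNA of its array, and in bulk RNA fewer cells of a type and less RNA per cell cannot be told apart. The gene values still differed in distribution between arrays. They were normalized again within each set, LMP1 with YFP control and CD40-activated with naive control. In LMP1 against YFP control the higher share of limma's calls over all genes then went from 64.2% to 52.1%, and 6 member calls were lost. Levels are compared between arrays and never between genes, because each probe set has its own brightness. A difference is called with limma when its p, adjusted over all 21515 genes by Benjamini-Hochberg, is under 0.05. It is given as a log2 change ± its standard error with 2 arrays per group, and an adjusted p in the text is always this one.

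B cell markers were high in every group, with medians from 11.11 to 11.81. The YFP control arrays were the least alike, with 950 genes more than 1 log2 apart between replicates, where LMP1 had 14, CD40-activated 34 and naive control 364. The proteasome took part in this: 25 of the 30 core and 19S subunits were higher on YFP control 1 than on YFP control 2, by a median of 0.28. The naive control arrays held more signal from other blood cells. Summed over 5 T cell markers on the linear scale, signal was 198 to 315 on the other 6 arrays, against 2550 and 2100 on the naive control arrays. The 5 NK cell markers summed to 179 to 298 on the other 6, against 1090 and 711 on the naive control arrays. The 3 erythroid and platelet markers summed to 103 to 147 on the other 6, against 2360 and 775 on the naive control arrays.

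Both activated groups had more proteasome RNA than their own controls. The median level over the 30 core and 19S subunits was 9.74 and 9.66 on the LMP1 arrays, against 8.78 and 8.42 on the YFP control arrays. It was 9.29 and 9.33 on the CD40-activated arrays, against 8.32 and 8.21 on the naive control arrays. The activated arrays thus lay above all 4 control arrays, while the median over all genes stayed between 5.59 and 5.75 on the 8 arrays. Of the 45 members, 32 had their highest group mean in LMP1 cells, 10 in CD40-activated cells, 1 in YFP control and 2 in naive control. That ranking crosses groups that differ in strain, sex, recombinase and sort, and it was not made for all genes.

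**Figure D1:**
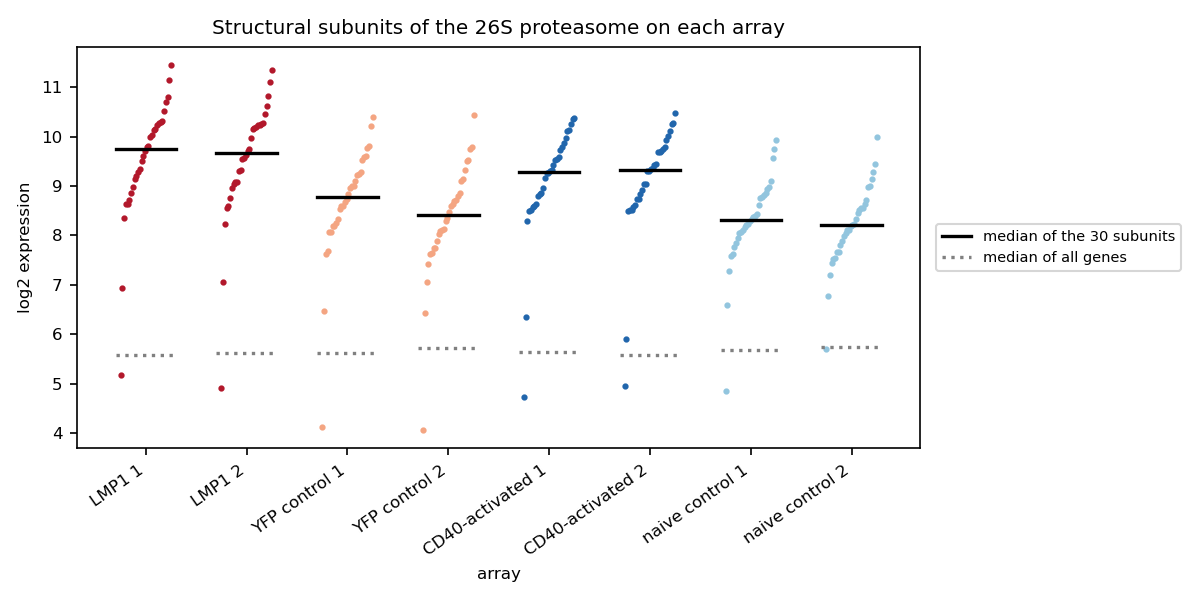
Each point is 1 of the 30 subunits of the 20S core and 19S particle on 1 array (y axis, log2 expression; x axis, the 8 arrays). The thick line is the median of the 30 subunits and the dotted line the median of all genes. The thick lines sit at 9.66 and 9.74 for LMP1 and at 9.29 and 9.33 for CD40-activated, above the 4 control arrays, while the dotted lines stay between 5.59 and 5.75. The low point on each array is Psma5.

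The effect of LMP1 was read against YFP control cells, which match in background, sex, recombinase treatment and sort. Of the 45 members 34 were called higher (75.6%) and 0 lower, where limma called 14.9% of all genes higher and 8.31% lower. At an unadjusted p under 0.05, 38 were higher and 0 lower. Among the brightest 25% of genes, a background chosen after the members' levels were seen and holding 37 of the 45, 32.4% were higher. The members' median change was 1.02, against -0.08 for all genes, and 23 members rose by at least 1, as did 8.67% of all genes. In 41 of the 45 both LMP1 arrays were above both YFP control arrays, against 27.5% of all genes and 50.1% of the brightest 25%. Markers of other states moved in this comparison too. The 4 measured dendritic cell markers summed to 1070 and 920 on the LMP1 arrays, against 211 and 240 on the YFP control arrays, with 2 of 4 higher (Flt3 and Zbtb46). The 4 plasma cell markers summed to 729 and 738 in LMP1 cells, against 1180 and 1250 in YFP control cells, with 2 of 4 lower. Of 6 monocyte and macrophage markers 2 were lower, and of 6 B cell markers 1 was higher and 2 lower. Their part in the result was not tested.

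The rise covered the whole 26S complex, with 26 of 30 subunits higher, a median of 1.05 and a range from 0.39 to 1.75. In the 19S particle 16 of 17 subunits rose, with an SD of 0.25 between their changes. In the core 10 of 13 subunits rose, with an SD of 0.42. All 6 measured α ring subunits, the 3 catalytic β subunits and the 6 ATPases rose, but only 1 of the 4 other β subunits did. Of these 16 calls, those of Psma1, Psma3, Psma5, Psmb4, Psmb6, Psmc1 and Psmc3 were lost under at least 1 of the 15 alternatives.

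The largest increase of any member was that of Psma6, an α ring subunit. Its levels were 10.51 and 10.46 in LMP1 cells, against 9.01 and 8.47 in YFP control cells. The groups stood apart by more than either spread, and the change was 1.75 ± 0.20, or 3.35-fold (adjusted p = 0.000208). Psma7, also of the α ring, had 9.78 and 9.62 in LMP1 cells and 8.73 and 7.89 in YFP control cells, a change of 1.39 ± 0.25 (adjusted p = 0.00261). Psma2 rose by 1.12, Psma3 by 0.73 and Psma1 by 0.67. Psma1 lost its call under 7 alternatives and was at 0.40 (adjusted p = 0.35) without LMP1 array 1. Psma5 is the dimmest subunit, with 5.19 and 4.92 in LMP1 cells and 4.14 and 4.07 in YFP control cells, a change of 0.95 ± 0.26 (adjusted p = 0.0234). Its dimmer second probe set read -0.17, so its probe sets disagree, and with their mean the change was 0.39 and did not pass (adjusted p = 0.155). Psma4, the α subunit missing here, was not analysed.

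In the β ring the catalytic subunits rose and most of the others did not pass. The catalytic subunits are Psmb5, with chymotrypsin-like activity, Psmb6, with caspase-like activity, and Psmb7, with trypsin-like activity. Psmb5 had 11.15 and 11.11 in LMP1 cells, against 10.22 and 9.52 in YFP control cells, and rose by 1.26 ± 0.22 (adjusted p = 0.00243). Psmb7 rose by 1.02 ± 0.16 (adjusted p = 0.00155) and Psmb6 by 0.72 ± 0.22 (adjusted p = 0.0391). The call for Psmb6 was lost under 7 alternatives, with 0.38 (adjusted p = 0.189) after quantile normalization within each set and 0.49 (adjusted p = 0.183) without YFP control 2. Among the β subunits without catalytic sites, Psmb4 stood out.

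Psmb4 closes the β ring during assembly. Its levels were 10.04 and 10.26 in LMP1 cells, against 9.22 and 8.03 in YFP control cells, which differ by more than 1 log2. Its change was 1.53 ± 0.33 (adjusted p = 0.00764), and without LMP1 array 2 the call was lost at 1.42 (adjusted p = 0.0622). Psmb1 (0.39), Psmb2 (0.50) and Psmb3 (0.54) did not pass, with adjusted p between 0.0539 and 0.11. In all 3 both LMP1 arrays were above both YFP control arrays. The same held for 27.5% of all genes and for 50.1% of the brightest genes taken as background above, so this separation alone does not show a rise.

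The 19S base carries the ATPase ring. Its members Psmc4 (1.32), Psmc6 (1.28), Psmc2 (1.21), Psmc3 (1.05), Psmc5 (1.02) and Psmc1 (0.85) all rose. Psmc2 has a second, dimmer probe set, which read 0.74. Psmc3 had 8.64 and 8.60 in LMP1 cells, against 8.07 and 7.07 in YFP control cells, so the control spread is nearly as wide as the change. The scaffolds Psmd2 (1.24) and Psmd1 (1.07) and the ubiquitin receptor Psmd4 (0.69) rose too. In the lid 7 of 8 subunits rose, led by Psmd7, the partner of the deubiquitinase Psmd14. Psmd7 had 10.31 and 10.19 in LMP1 cells, against 8.95 and 8.64 in YFP control cells, a change of 1.46 ± 0.18 (adjusted p = 0.000308). The lid subunit that did not pass was Psmd14 itself, with 9.21 and 9.08 in LMP1 cells and 8.54 and 8.79 in YFP control cells (0.48; adjusted p = 0.0795).

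Assembly chaperones rose for 6 of 8. Psmg1 and Psmg2 form the dimer on which the α ring is built. Psmg1 had 8.80 and 8.75 in LMP1 cells, against 7.06 and 7.49 in YFP control cells, and rose by 1.50 ± 0.20 (adjusted p = 0.000519). Psmg2 rose by 1.26 ± 0.26 (adjusted p = 0.00658), but its dimmer probe set read -0.25, and the mean of both was at 0.50 and did not pass (adjusted p = 0.0729). The partners of the other α ring dimer, Psmg3 (0.31) and Psmg4 (0.09), did not pass, and Psmg4 overlapped between the groups, with 7.02 and 7.33 in LMP1 cells and 6.97 and 7.21 in YFP control cells. Pomp, the chaperone that matures unfinished core particles and is then degraded, rose by 1.11 ± 0.16 (adjusted p = 0.000869). The base chaperones Psmd5 (1.23), Psmd9 (0.94) and Psmd10 (0.80) all rose.

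Regulators of the core did not follow as a group. Psme3, the nuclear activator PA28γ, rose by 1.18 ± 0.18 (adjusted p = 0.00108), with 9.88 and 9.82 in LMP1 cells and 8.79 and 8.56 in YFP control cells. Psme4, the activator PA200, had 9.10 and 9.09 in LMP1 cells against 9.28 and 9.24 in YFP control cells, a change of -0.17 (95% interval from -0.56 to 0.23) that did not pass. The regulator Psmf1, known as PI31, was at 0.22 without passing. Psma8, an α subunit of the testis, had 4.68 and 4.53 in LMP1 cells and 4.72 and 4.53 in YFP control cells (-0.02). Psmb11, the catalytic subunit of the thymic cortex, was at 0.12. Neither differed beyond its spread. Psmc3ip, a recombination factor that binds an ATPase subunit, rose by 0.91, and Psme3ip1, which binds PA28γ, was at 0.28 without passing.

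Fewer members were called higher in LMP1 cells without LMP1 array 1 or LMP1 array 2, and calls over all genes fell as well. In these fits the lone array was assumed to vary like the others. Of the 34 calls 18 held under every alternative run.

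**Figure D2:**
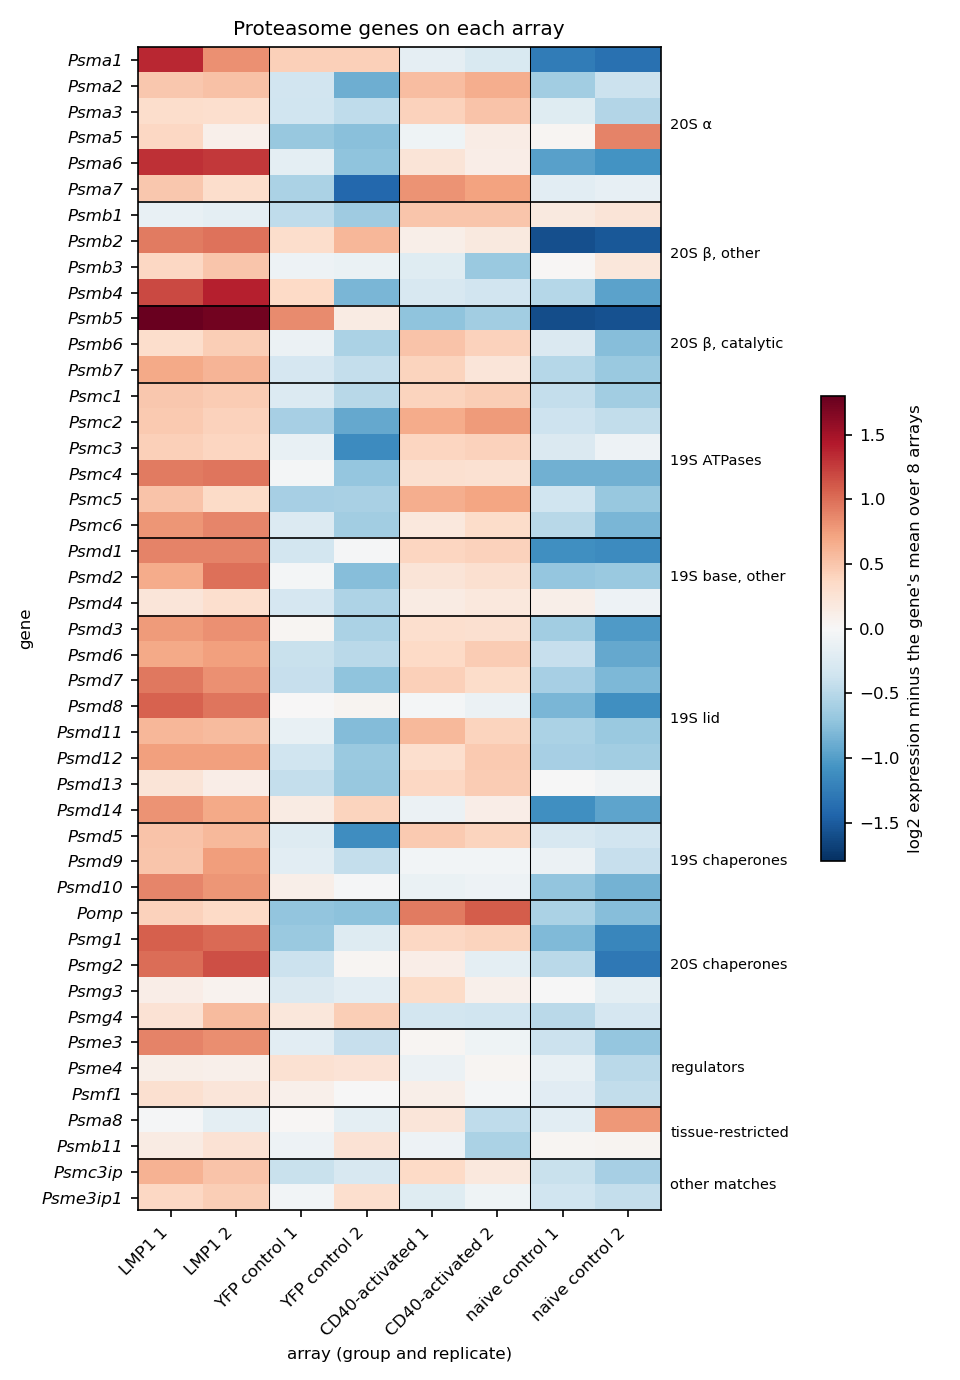
Heat map of the 45 members (rows, grouped by role) over the 8 arrays (columns, in the order LMP1, YFP control, CD40-activated, naive control). Colour is log2 expression minus the gene's mean over all arrays. Most core, 19S and chaperone rows are above their mean on the LMP1 arrays and below it on the naive control arrays, while Psma8 and Psmb11 depart from this.

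Promoter sequence was looked at because the members moved together. NRF1, encoded by Nfe2l1, drives proteasome genes from antioxidant response elements when proteasome capacity is short, and the factor NF-Y binds CCAAT boxes. Windows of 300 bases, from 250 before to 50 after the start site, were present for 37 of the 45 members in RefSeq (GRCm38.p6). The core letters TGACNNNGC, on either strand, were in 6 of the 37 (16.2%), against 14.0% of 27025 genes. The letters CCAAT, on either strand, were in 15 of the 37 (40.5%), against 41.1%. Neither share departs far from that of all genes, and a match or its lack says nothing of binding. The 150 bases before the start site are shown for Psmb5, Psmb6 and Psmd9, which hold the first motif in that stretch, and for Psma6, with the largest rise in LMP1 cells, and Pomp, with a large one in CD40-activated cells, which do not. Capitals mark TGACNNNGC in Psmb5, Psmb6 and Psmd9 and CCAAT or its reverse complement in Psma6. Each reads 5′ to 3′ on the strand of its gene. Psmb5 is at chr14:54617996-54618145 (minus strand), Psmb6 at chr11:70525207-70525356, Psmd9 at chr5:123228040-123228189, Psma6 at chr12:55384072-55384221 (1 of its 2 windows) and Pomp at chr5:147860478-147860627, the last 4 on the plus strand.
Psmb5: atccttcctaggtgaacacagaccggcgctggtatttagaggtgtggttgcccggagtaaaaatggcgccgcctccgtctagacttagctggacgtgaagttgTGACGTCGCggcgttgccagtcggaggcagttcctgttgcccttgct
Psmb6: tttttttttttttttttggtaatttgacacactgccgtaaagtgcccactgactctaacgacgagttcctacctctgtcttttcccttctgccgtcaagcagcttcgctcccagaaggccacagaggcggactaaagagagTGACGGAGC
Psmd9: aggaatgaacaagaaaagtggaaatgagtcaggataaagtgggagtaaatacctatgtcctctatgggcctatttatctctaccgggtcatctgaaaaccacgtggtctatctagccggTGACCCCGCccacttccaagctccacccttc
Psma6: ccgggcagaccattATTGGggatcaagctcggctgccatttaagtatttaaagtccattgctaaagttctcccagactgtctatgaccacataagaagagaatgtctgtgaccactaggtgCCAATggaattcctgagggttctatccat
Pomp: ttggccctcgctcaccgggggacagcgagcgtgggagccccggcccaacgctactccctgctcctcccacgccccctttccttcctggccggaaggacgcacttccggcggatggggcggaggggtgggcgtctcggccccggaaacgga

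The response to CD40 was read against naive control cells, so that the antibody and 2 days of culture go together. Of the 45 members 28 were called higher (62.2%) and 0 lower, where limma called 11% of all genes and 28.7% of the brightest 25% higher and 6.65% of all genes lower. At an unadjusted p under 0.05, 31 were higher and 1 lower. The median change was 0.90, against -0.05 for all genes, and 15 members rose by at least 1, as did 5.36% of all genes. In 40 of the 45 both CD40-activated arrays were above both naive control arrays, against 28.4% of all genes and 59.4% of the brightest 25%. The naive control arrays are those with the higher signal from T cells, NK cells and the erythroid gene Slc4a1. In CD40-activated cells 5 of 5 T cell and 3 of 5 NK cell markers were lower. Their part in the result was not tested.

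Of the 30 core and 19S subunits 23 rose, with a median of 0.97. The 19S particle again held most of them, with 14 of 17 higher, against 9 of 13 in the core. The catalytic subunits moved almost together, Psmb6 by 0.98, Psmb5 by 0.91 and Psmb7 by 0.90, though Psmb5 lost its call when any 1 array of these groups was left out (adjusted p from 0.0743 to 0.135). Of the other β subunits 1 of 4 passed.

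That subunit was Psmb2, with the largest change of all members. Its levels were 9.31 and 9.37 in CD40-activated cells, against 7.62 and 7.67 in naive control cells, a change of 1.70 ± 0.17 or 3.24-fold (adjusted p = 0.000157). Pomp came next, with 10.02 and 10.18 in CD40-activated cells and 8.51 and 8.32 in naive control cells, a change of 1.69 ± 0.16 (adjusted p = 0.000152). The base scaffold Psmd1 had 9.72 and 9.75 in CD40-activated cells against 8.23 and 8.20 in naive control cells, and rose by 1.52 ± 0.17 (adjusted p = 0.000316). In these 3 genes the replicates lay close together and the groups far apart.

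In the α ring Psma6 (1.20), Psma2 (1.11), Psma1 (1.08), Psma7 (0.94) and Psma3 (0.84) rose. The ATPases Psmc5 (1.20), Psmc4 (1.15), Psmc2 (1.12), Psmc1 (0.96) and Psmc6 (0.93) rose, and Psmc3 (0.57) did not pass. In the lid Psmd14 passed here, at 1.03 ± 0.18 (adjusted p = 0.00321), and Psmd13 (0.46) was the member that did not. The ubiquitin receptor Psmd4 was at 0.17. Among the chaperones Psmg1 rose by 1.37 ± 0.20 (adjusted p = 0.00146), while Psmd5 (0.76), Psmg3 (0.32), Psmd9 (0.21) and Psmg4 (0.06) did not pass. Psmg2 passed narrowly, at 0.86 (adjusted p = 0.04995), and its dimmer probe set read 0.08. Of the 3 regulators 0 passed with limma and 1 had an unadjusted p under 0.05, with Psme3 at 0.52, Psmf1 at 0.37 and Psme4 at 0.28.

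The lowest changes were negative and none passed. Psmb3, a β ring subunit, had 6.35 and 5.90 in CD40-activated cells against 6.59 and 6.77 in naive control cells, a change of -0.56 ± 0.19 (adjusted p = 0.0729). Psma5 had 4.74 and 4.95 in CD40-activated cells against 4.86 and 5.71 in naive control cells (-0.44; adjusted p = 0.288), and its other probe set read 0.02. Without naive control 1 the change of Psma5 was -0.87 (adjusted p = 0.0308). Psma8 had 4.92 and 4.25 in CD40-activated cells and 4.52 and 5.48 in naive control cells (-0.42), with overlapping arrays.

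Fewer members were called higher when either CD40-activated array was left out, and calls over all genes fell as well. Of the 28 calls 11 held under every alternative.

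**Figure D3:**
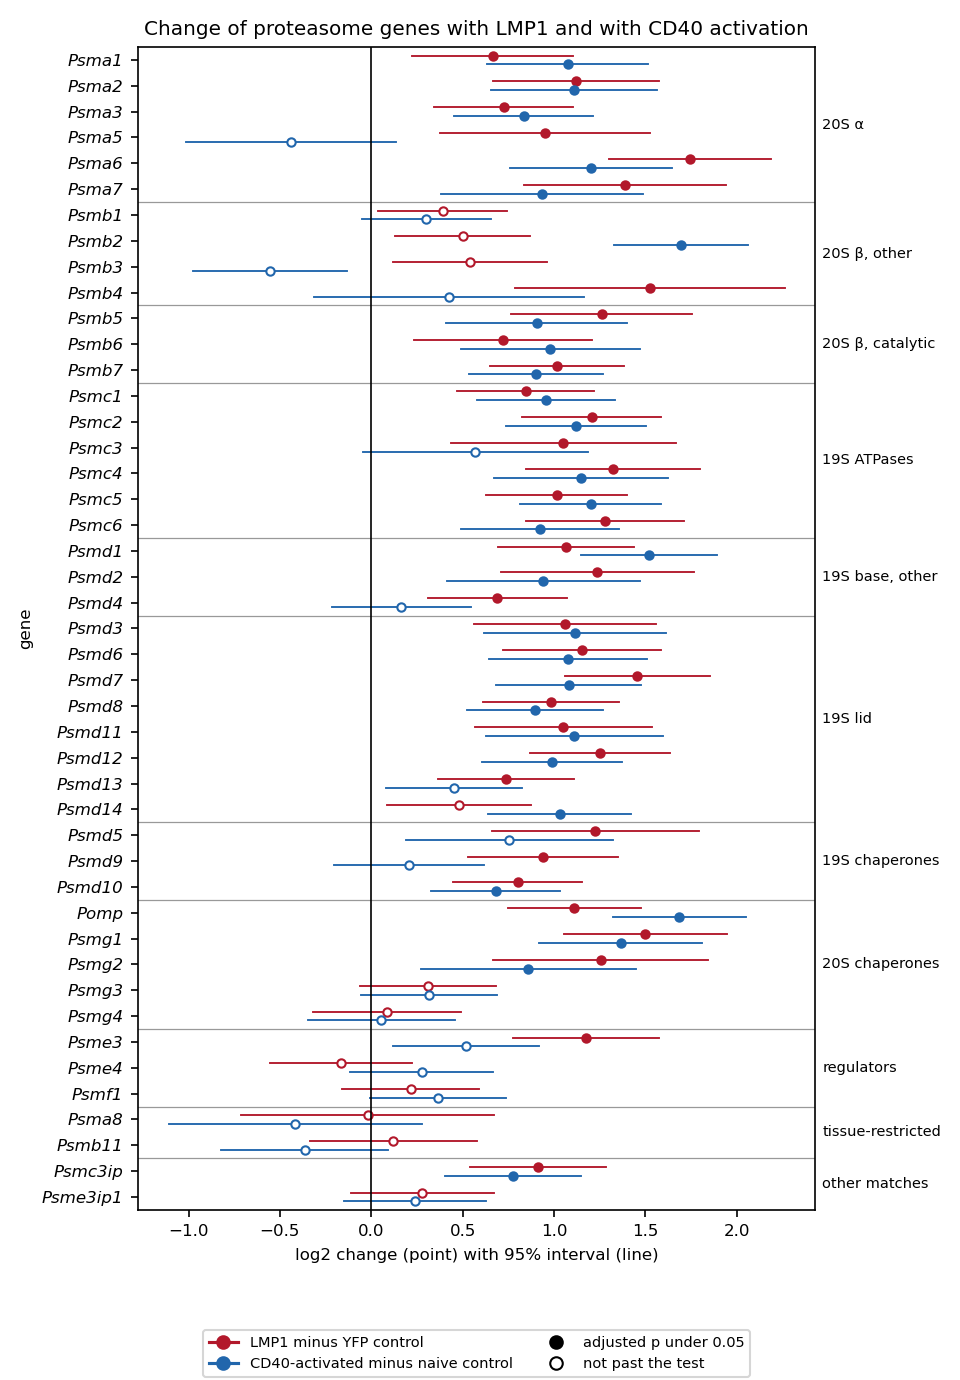
Each row is a member, grouped by role, with its log2 change (x axis, point) and 95% interval (line) in LMP1 minus YFP control and in CD40-activated minus naive control. Filled points have an adjusted p under 0.05. Most core and 19S points lie near 1 in both comparisons, and Psmb2, Psmb3 and Psma5 lie apart between them.

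LMP1 against YFP control and CD40-activated against naive control share no array. Of the 45 members 26 rose in both (57.8%), 8 in LMP1 cells alone, 2 in CD40-activated cells alone and 9 in neither, and 6.7% of all genes rose in both. A gene that passed in only 1 of them was not thereby shown to differ. The difference itself, LMP1 response minus CD40 response, was called higher for 2 members and lower for 1, where 4.2% of all genes were higher and 4.12% lower. Psmb2 was lower in this difference at -1.20 ± 0.23 (adjusted p = 0.0126). Psmb3 was higher at 1.10 ± 0.27 (adjusted p = 0.0346) and Psma5 at 1.39 ± 0.36 (adjusted p = 0.04496). All 3 belong to the core, and limma called 0 of the 17 subunits of the 19S particle, with 0 also at an unadjusted p under 0.05. Over all genes 8.32% were called in either direction, so counts this small do not separate the core from the 19S particle. The 19S ATPase Psmc3 was at 0.48, and at 0.98 without YFP control 1. Across genes the 2 sets of changes had a Pearson correlation of 0.57 over the 45 members, 0.27 over the 30 core and 19S subunits and 0.44 over all genes. Genes share arrays and are not independent.

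Psmb2 differed between the controls more than between the activated cells. It had 10.14 and 10.17 in LMP1 cells and 9.52 and 9.79 in YFP control cells, but 9.31 and 9.37 in CD40-activated cells and 7.62 and 7.67 in naive control cells. The naive control was thus the low group, and the YFP control was above the CD40-activated cells. Psmb3 had 6.94 and 7.06 in LMP1 cells and 6.48 and 6.44 in YFP control cells. Its CD40-activated arrays, at 6.35 and 5.90, were below both naive control arrays. None of the 3 calls held under every alternative, and the call for Psma5 was lost when its probe sets were averaged (0.61; adjusted p = 0.191). Without YFP control 1 more members were called higher in the difference, as were more of all genes. Fewer members were called higher with any other single array left out. Over all genes the number fell too, except without YFP control 2.

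LMP1 cells and CD40-activated cells were also compared directly. Strain, sex, recombinase, sort and, per the labels, earlier publication of the LMP1 arrays differ along with the stimulus and cannot be told apart from it. Of the 45 members 13 were higher in LMP1 cells (28.9%) and 2 lower (4.44%), where 9.66% of all genes were higher and 5.17% lower, and 20.4% of the brightest 25% higher. The core contributed 6 higher and 1 lower, the 19S particle 2 higher. Psmb5 had 11.15 and 11.11 in LMP1 cells against 8.64 and 8.74 in CD40-activated cells, 2.44 ± 0.22 or 5.43-fold higher (adjusted p = 0.000106). Psmb4 had 10.04 and 10.26 in LMP1 cells against 8.57 and 8.51 in CD40-activated cells (1.61 ± 0.33; adjusted p = 0.00895). Psma1, of the α ring, had 10.69 and 10.15 in LMP1 cells against 9.16 and 9.05 in CD40-activated cells (1.32 ± 0.20; adjusted p = 0.00174). These 3 genes had the largest differences of the members, and no arrays overlapped.

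In the other direction Psmb1, a β ring subunit, had 9.61 and 9.57 in LMP1 cells against 10.25 and 10.25 in CD40-activated cells (-0.66 ± 0.16; adjusted p = 0.0195). Pomp had 9.50 and 9.44 in LMP1 cells against 10.02 and 10.18 in CD40-activated cells (-0.63 ± 0.16; adjusted p = 0.0274). Psma7, with 9.78 and 9.62 in LMP1 cells and 10.11 and 10.02 in CD40-activated cells, was at -0.37 and did not pass. Neither lower call held when any 1 LMP1 or CD40-activated array was left out. The number higher fell without any 1 LMP1 or CD40-activated array and rose without either YFP control array, as it did over all genes. Psma1, Psmb5 and the lid subunit Psmd8 (1.08) held under every alternative.

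YFP control cells were set against naive control cells. The 2 groups differ in strain, sex, culture, recombinase, sort and earlier publication of the YFP control arrays, which cannot be told apart. Of the 45 members 9 were higher and 3 lower in YFP control, where 10.9% of all genes were higher and 7.59% lower, so the counts are 20% and 6.67% of the members. Among the brightest 25% of genes 24% were higher. Although the median over the 30 subunits was 0.16, single core genes moved widely, with an SD of 1.06 in the core and 0.52 in the 19S particle. Psmb5 had 10.22 and 9.52 in YFP control cells against 7.77 and 7.80 in naive control cells (2.09 ± 0.22; adjusted p = 0.000319). Psmb2 was higher by 2.01 ± 0.17 (adjusted p = 8.16e-05). Psma1 had 9.76 and 9.75 in YFP control cells against 8.07 and 7.99 in naive control cells (1.73 ± 0.20; adjusted p = 0.000487). For these 3 subunits the YFP control cells were thus far above the naive control cells. The 19S subunits Psmd14 (1.30), Psmd8 (0.99) and Psmd1 (0.95) were called higher too, and their calls held under every alternative.

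The lower calls in YFP control were Psma5 (-1.18 ± 0.26; adjusted p = 0.0119), Psma7 (-0.82 ± 0.25; adjusted p = 0.0455) and Psmb1 (-0.75 ± 0.16; adjusted p = 0.0101). Of 15 alternatives the call was lost under 2 for Psma5, 9 for Psma7 and 1 for Psmb1. The other probe set of Psma5 read -0.15. Psma7 had 8.73 and 7.89 in YFP control cells against 9.11 and 9.15 in naive control cells, and without YFP control 2 it was at -0.40 and did not pass. Psmb1 had 9.29 and 9.11 in YFP control cells against 9.92 and 9.98 in naive control cells. Side by side, the change of Psmb5 was 2.44 in LMP1 against CD40-activated cells and 2.09 in YFP control against naive control cells. That of Psma1 was 1.32 and 1.73, that of Psmd8 1.08 and 0.99, and that of Psmb1 -0.66 and -0.75. Psmb4 was at 1.61 between the activated cells and 0.51, without passing, between the controls. With YFP control 2 left out, the change of Psmb4 between the controls was 1.11. The gap between such 2 changes equals the difference of responses, which did not pass for Psmb4 (1.10; limma adjusted p = 0.198). It was called for Psmb2 (0.82 between the activated cells and 2.01 between the controls), Psmb3 (0.88 and -0.22) and Psma5 (0.21 and -1.18). The T cell, NK cell and erythroid signal on the naive control arrays accompanies these values too, with 5 of 5 T cell and 4 of 5 NK cell markers lower in YFP control cells. Its part was not tested.

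**Figure D4:**
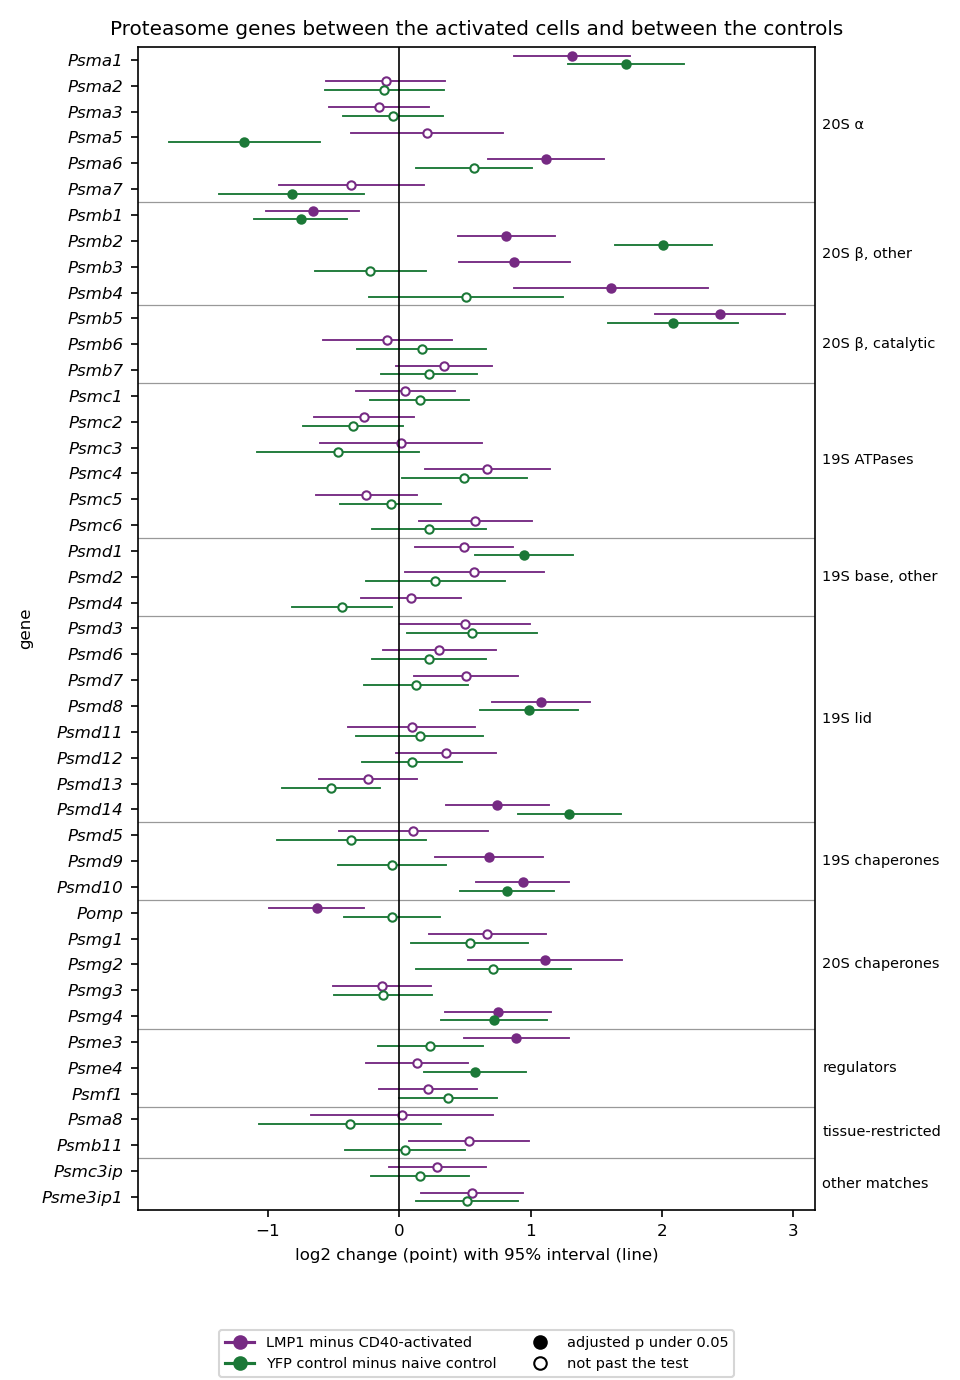
Each row is a member with its log2 change (x axis, point) and 95% interval (line) in LMP1 minus CD40-activated and in YFP control minus naive control. Filled points have an adjusted p under 0.05. Psmb5 lies at 2.44 and 2.09, Psma1 at 1.32 and 1.73 and Psmb1 at -0.66 and -0.75, and the 19S subunit Psmd8 at 1.08 and 0.99.

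The constitutive catalytic subunits have inducible counterparts, which were left out by name and are given for comparison. Psmb8 takes the place of Psmb5, Psmb9 that of Psmb6 and Psmb10 that of Psmb7 in the immunoproteasome. Against YFP control, LMP1 cells were higher in all 3 inducible subunits. Psmb9 had 9.71 and 9.66 in LMP1 cells against 8.89 and 8.11 in YFP control cells (1.19 ± 0.24; adjusted p = 0.00522). Psmb8 had 9.82 and 9.81 in LMP1 cells against 9.26 and 8.41 in YFP control cells (0.98 ± 0.26; adjusted p = 0.0205). Psmb10 had 10.06 and 10.05 in LMP1 cells against 9.53 and 9.52 in YFP control cells (0.53 ± 0.16; adjusted p = 0.0402). Psmb9 held under every alternative, Psmb8 lost its call under 4 and was at 0.56 (adjusted p = 0.0754) without YFP control 2, and Psmb10 lost it under 8, with 0.33 (adjusted p = 0.215) after quantile normalization within each set and adjusted p = 0.058 with the replicate block.

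In CD40-activated cells limma called 0 of the 3 inducible subunits against naive control, adjusted or at an unadjusted p under 0.05, while all 3 constitutive ones rose. With quantile normalization within each set Psmb10 was called lower, at -0.61 (adjusted p = 0.0397). Psmb9 was at 0.02, Psmb8 at 0.01 and Psmb10 at -0.35, with 8.99 and 8.80 in CD40-activated cells and 9.16 and 9.33 in naive control cells for Psmb10. The difference between the responses passed for Psmb10 (0.88 ± 0.23; adjusted p = 0.0441) and not for Psmb9 (1.17; adjusted p = 0.0649) or Psmb8 (0.97; adjusted p = 0.149). The activator genes Psme1 and Psme2 passed in neither response, with Psme1 at 0.32 and 0.40 and Psme2 at 0.58 and -0.33 for LMP1 and CD40.

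**Figure D5:**
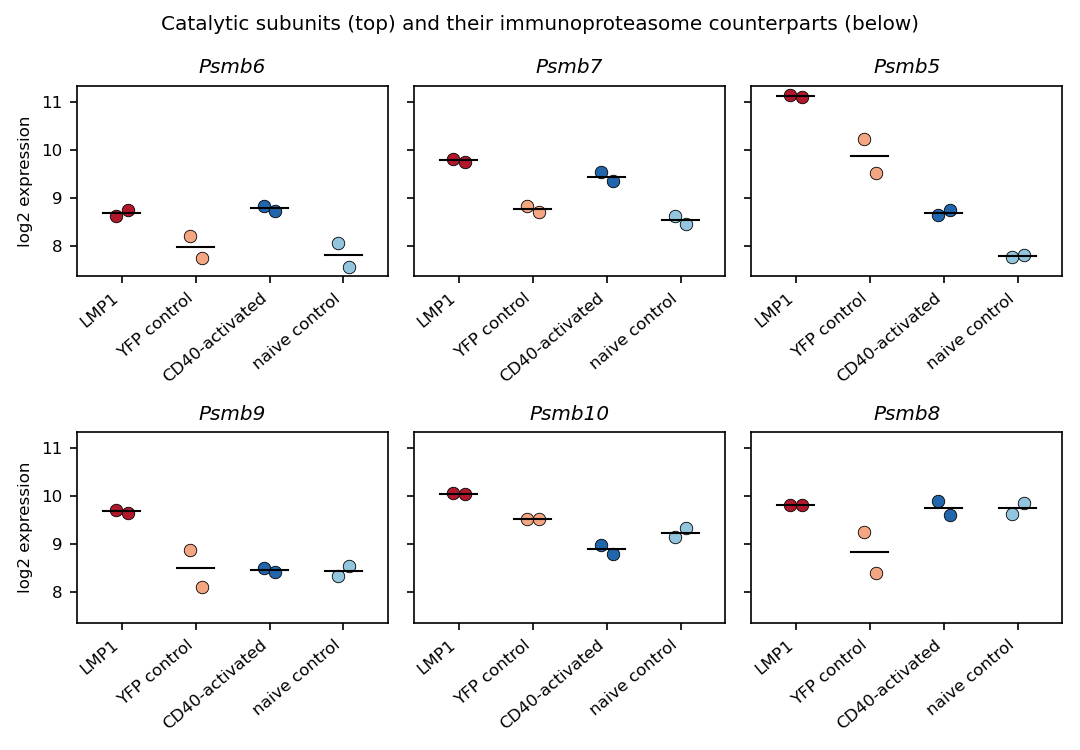
Log2 expression (y axis) of the constitutive catalytic subunits Psmb5, Psmb6 and Psmb7 and of their inducible counterparts Psmb8, Psmb9 and Psmb10 in the 4 groups (x axis). Points are arrays and lines the mean of 2 arrays. All 6 are higher in LMP1 than in YFP control cells, the 3 constitutive ones are higher in CD40-activated than in naive control cells, and Psmb10 is lowest in CD40-activated cells.

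Of 13 proteasome partners measured outside the name rule, 7 rose (53.8%) and 1 fell (7.69%) in LMP1 cells against YFP control, where 14.9% of all genes and 32.4% of the brightest 25% rose and 8.31% of all genes fell. In CD40-activated cells against naive control limma called 6 higher (46.2%) and 0 lower, with 9 and 0 at an unadjusted p under 0.05, where 11% of all genes and 28.7% of the brightest 25% rose. Uchl5, a deubiquitinase of the 19S particle, had 9.99 and 9.94 in LMP1 cells against 8.21 and 7.94 in YFP control cells (1.89 ± 0.18; adjusted p = 8.91e-05). It had 8.85 and 9.13 in CD40-activated cells against 7.55 and 7.33 in naive control cells (1.55 ± 0.18; adjusted p = 0.000468). The change of 1.89 in LMP1 cells exceeded the 1.75 of Psma6, and that of 1.55 in CD40-activated cells was below the 1.70 of Psmb2. Usp14, the deubiquitinase that trims ubiquitin on the proteasome, rose by 0.80 ± 0.20 in LMP1 cells (adjusted p = 0.0179) and by 1.53 ± 0.20 in CD40-activated cells (adjusted p = 0.000884). The LMP1 call of Usp14 was lost under 4 of 15 alternatives. YFP control cells were 1.49 above naive control cells in Usp14 (adjusted p = 0.0012). The shuttle Ubqln4 rose by 1.25 in LMP1 and 0.63 in CD40-activated cells, and the proteasome-bound Txnl1 by 1.19 and 1.40. The CD40 call of Ubqln4 was lost under 7 of 15 alternatives, and its YFP control cells were also 0.63 above naive control cells. Adrm1 and Paaf1 were not analysed here.

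Sem1, the smallest subunit of the 19S particle, separated the LMP1 and YFP control arrays from the CD40-activated and naive control arrays. It had 8.19 and 8.36 in LMP1 cells and 7.90 and 6.94 in YFP control cells (0.86 ± 0.27; adjusted p = 0.0476), but 9.71 and 9.84 in CD40-activated cells and 9.62 and 9.80 in naive control cells (0.07). The LMP1 call was lost under 11 of the 15 alternatives, the replicate block among them (adjusted p = 0.0552), and was at 0.38 (adjusted p = 0.194) without YFP control 2. The change was -2.29 ± 0.27 in YFP control against naive control (adjusted p = 0.000593) and -1.50 ± 0.27 in LMP1 against CD40-activated cells (adjusted p = 0.00491). Zfand5, a stimulator of proteasome activity, fell to 8.86 and 8.79 in LMP1 cells, against 9.62 and 9.42 in YFP control cells (-0.70 ± 0.18; adjusted p = 0.0194). It was at 0.43 without passing in CD40-activated cells, and the difference between the responses was -1.13 ± 0.26 (adjusted p = 0.0256).

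Of 9 measured genes of the NRF1 pathway and its transcription partners, 3 rose (33.3%) and 2 fell (22.2%) in LMP1 cells, where 14.9% of all genes and 32.4% of the brightest 25% rose and 8.31% of all genes fell. In CD40-activated cells limma called 1 higher (11.1%) and 0 lower, with 3 and 0 at an unadjusted p under 0.05, and 11.1% is near the 11% of all genes. Nfe2l1, which encodes NRF1, had 8.59 and 8.43 in LMP1 cells against 7.95 and 7.45 in YFP control cells (0.81 ± 0.21; adjusted p = 0.0174), and was at 0.29 without passing in CD40-activated cells. The NF-Y subunits Nfyb (0.86) and Nfyc (0.67) rose in LMP1 cells and Nfya (0.53) did not pass. The calls were lost under 5 alternatives for Nfe2l1, at 0.47 (adjusted p = 0.0687) after quantile normalization within each set, under 4 for Nfyb and under 8 for Nfyc, the replicate block among them (adjusted p = 0.0552). Ngly1, which removes sugars from NRF1 on its way to the nucleus, fell by 0.80 in LMP1 cells and was at -0.24 without passing in CD40-activated cells.

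Nfe2l2, encoding the related oxidative stress factor NRF2, moved in opposite directions. It had 8.84 and 8.57 in LMP1 cells against 9.95 and 10.34 in YFP control cells (-1.44 ± 0.19; adjusted p = 0.000431). It had 9.59 and 9.56 in CD40-activated cells against 8.87 and 8.84 in naive control cells (0.72 ± 0.19; adjusted p = 0.0249). The CD40 call was lost under 5 of the 15 alternatives and the LMP1 call under 0. The difference between the responses was -2.16 ± 0.26 (adjusted p = 0.0011). YFP control cells were 1.29 ± 0.19 above naive control cells (adjusted p = 0.0016), so the YFP control was the highest of the 4 groups. The protease gene Ddi2 was not analysed here.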

How the data were processed

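The deposited table holds log2 expression per probe set. The authors made it with RMA in the package oligo, per the submitters' processing notes. RMA corrects background, quantile-normalizes and summarises probes, and no versions are given in the sources used here. Per the labels, LMP1 and YFP control arrays had been published in another series. Of 25349 probe sets 22225 had 1 gene symbol in the platform's annotation, 616 several and 2508 none. Only those with 1 symbol were used, and the brightest probe set stood for each of 640 genes that had more than 1. This took Psma5, Psmc2 and Psmg2 from 2 probe sets each, and no filter on low values was set. Psma4 shares its probe set with another gene and was left out. Pseudogenes named for Psma5, Psmb5, Psmb6 and Psmb7 exist, and signal from them was not separated.

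All 8 arrays entered 1 limma 3.58.1 model of 4 group means in R 4.3.3 (lmFit and eBayes, 4 residual and 5.75 prior degrees of freedom), with two-sided p-values adjusted over all 21515 genes. Errors of changes are the model's standard errors, and intervals are at 95%. The labels do not say that arrays came from separate animals, so p-values measure the spread between these samples, which may be technical. The number of arrays limits the precision. The fit was tested on simulated data. Members and lists were chosen with earlier results of these data known. All members could be named. Values on every array are given for the 3 highest and 3 lowest changes of a comparison, members called in the difference of responses, and some others chosen after their values were seen. Outside the members, up to 3 genes at either end of each list, the immunoproteasome genes, Nfe2l1, Nfe2l2 and Usp14 could be named. Markers of other cells were summed on the linear scale. Figures used Python 3.11.15 with matplotlib 3.10.9.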

Additional observations from a re-analysis of the deposited data

Results flagged for a closer look

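Of the genes named, 7 differed between the LMP1 response and the CD40 response by limma's test of the difference itself. Among the members these were Psma5 (1.39), Psmb3 (1.10) and Psmb2 (-1.20), in log2, with adjusted p = 0.04496, 0.0346 and 0.0126. Among the others they were Nfe2l2 (-2.16; adjusted p = 0.0011), Zfand5 (-1.13; adjusted p = 0.0256), the p97 cofactor Ubxn1 (1.05; adjusted p = 0.0235) and the inducible catalytic subunit Psmb10 (0.88; adjusted p = 0.0441). Of 14 alternatives the call was lost under 8 for Psmb10, the replicate block (adjusted p = 0.0638) and subtracted array medians (adjusted p = 0.0537) among them, under 5 each for Zfand5 and Ubxn1, and under 0 for Nfe2l2. Ubxn1 had 8.99 and 8.94 in LMP1 cells and 8.24 and 7.97 in YFP control cells, and 8.30 and 8.27 in CD40-activated cells and 8.43 and 8.52 in naive control cells. Groups of 2 arrays allow no outlier check.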

How the results depend on the processing

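Settings tried were a trended, robust eBayes fit, a model of only the groups compared, dim genes left out, array medians subtracted, quantile normalization within each set, the mean of a gene's probe sets, a replicate block and each array left out. More members were called higher than lower in every setting of the first 4 comparisons. In the difference of responses 0 were higher and 1 lower without YFP control 2 or naive control 2. In LMP1 against YFP control the members called higher numbered 28 with quantile normalization within each set and 22 to 34 with 1 array left out (22 without LMP1 array 2). In CD40-activated against naive control they numbered 13 to 32, with 0 to 1 lower (13 without CD40-activated array 1, 16 without array 2). In LMP1 against CD40-activated 4 to 20 were higher and 0 to 2 lower, lowest without any 1 LMP1 or CD40-activated array and highest without either YFP control array, and 21 were higher with only the groups compared. In YFP control against naive control 8 to 12 were higher and 1 to 8 lower (8 without YFP control 1), and limma called 0 lower and 6 higher with only the groups compared, where 3 were lower and 10 higher at an unadjusted p under 0.05. For the difference of responses 0 to 9 were higher and 0 to 1 lower, and 1 was higher with array medians subtracted, with quantile normalization within each set and with the mean of probe sets. That difference needs all groups, so it has no value with only the groups compared. With an array left out the number of calls over all genes changed as well. The cause of these changes was not tested, and fewer arrays leave fewer degrees of freedom. Among all genes, quantile normalization within each set gave 52.1% higher calls in LMP1 against YFP control (64.2% otherwise) and 52.6% in CD40-activated against naive control (62.4% otherwise), where subtracting medians gave 74.3%. Subtracting medians added 0.11 to each change in that last comparison.

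Same-numbered arrays of different groups shared no strong deviation, with correlations from -0.10 to 0.07. These values cannot show whether same-numbered arrays were prepared together, and the sample titles do not say. With the replicate number as a block 34 members were higher in LMP1 against YFP control, 27 in CD40-activated against naive control, 13 higher and 2 lower in LMP1 against CD40-activated, 8 higher and 3 lower in YFP control against naive control, and 2 higher and 1 lower in the difference.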

Other observations

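The ATPase p97, encoded by Vcp, pulls ubiquitin-tagged proteins out of complexes and hands them to the proteasome. Of 7 measured genes of p97 and its cofactors, 4 rose and 0 fell in LMP1 cells against YFP control, with a median of 0.53 (6 and 0 at an unadjusted p under 0.05 with limma). That is 57.1%, against 14.9% of all genes and 32.4% of the brightest 25%. In CD40-activated cells against naive control 3 rose and 0 fell, with a median of 0.65 (5 and 0 at an unadjusted p under 0.05), or 42.9% against 11% of all genes and 28.7% of the brightest 25%. With only the groups compared, the LMP1 calls of Vcp, Nsfl1c and Faf2 were lost. Vcp had 10.12 and 10.12 in LMP1 cells against 9.47 and 8.61 in YFP control cells (1.08 ± 0.25; adjusted p = 0.0105; 0.52 and adjusted p = 0.0524 with the mean of its probe sets), and 10.31 and 10.41 in CD40-activated cells against 9.15 and 9.08 in naive control cells (1.25 ± 0.25; adjusted p = 0.0073). Nsfl1c, a cofactor that acts in membrane fusion, was at 1.13 in LMP1 cells (adjusted p = 0.0383) where the YFP control arrays read 8.60 and 7.33, lost its call under 9 of 15 alternatives (0.49 without YFP control 2), and did not pass in CD40-activated cells (0.85). Uba6, an enzyme that activates ubiquitin, rose by 1.04 ± 0.19 in CD40-activated cells (adjusted p = 0.00471) and was at 0.34 without passing in LMP1 cells. YFP control cells were 0.98 above naive control cells in Uba6 (adjusted p = 0.00691). The ubiquitin genes themselves were not analysed here.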
